A study of Mus musculus with 12 samples.

Results

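The castration effect common to the basal and luminal epithelium of the mouse prostate was measured on all 12 arrays of the study, 6 from castrated and 6 from intact males. Adult C57BL/6 males underwent surgical removal of the testes (orchiectomy) at 8 weeks of age or were left intact, and prostates were taken 4 weeks later. Dissociated cells were sorted as lineage-negative (Lin-) EpCAM+ cells into a luminal gate with low CD49f and a basal gate with high CD49f. Each of the 4 groups, intact or castrated in either gate, held 3 arrays, described as 3 sets of castrated and paired intact animals, and whether animals were pooled within a set is not given in the sources used here. No transgene was involved, and castration was the only treatment. The average effect is the castrated minus intact difference on the log2(signal + 16) scale with cell type as a covariate, so each cell type counts equally. Of 18193 genes with a probe set carrying 1 gene symbol, 14645 passed the brightness filter and were tested.

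Androgens made by the testis keep the prostatic epithelium in its secretory state. In luminal cells the androgen receptor drives the genes of seminal and prostatic fluid proteins, which are folded in the endoplasmic reticulum (ER) and exported, and the gland shrinks when androgen is withdrawn. Basal cells lie beneath the luminal layer, carry keratins 5 and 14 and the transcription factor p63, and largely survive castration.

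The gates differed clearly in basal markers and less in luminal keratins. Krt14, a basal keratin, read 44.5 to 283 on the 6 luminal arrays and 20424 to 32813 on the 6 basal arrays. Trp63, which encodes p63, read 7.78 to 216 on the luminal arrays and 7017 to 12963 on the basal arrays. Krt8, a luminal keratin, was bright in both, at 21538 to 28991 on luminal and 10950.0 to 19293 on basal arrays. For Krt18, another luminal keratin, mean basal signal was 68.0% of mean luminal signal in intact and 115% in castrated animals. The summed signal of 13 luminal identity genes was higher on every luminal array than on any basal array. Arrays were scaled to a trimmed mean of 500, but the median signal was 57.7 to 73.9 on the castrated arrays and 78.8 to 99.9 on the intact arrays, with no overlap. The mean correlation of an array with the other arrays of its group was 0.962 to 0.965 for castrated luminal arrays and 0.863 to 0.897 in the other groups, with intact luminal replicate 3 lowest.

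Genes lower in both cell types after castration included secreted prostatic and seminal fluid proteins (8 genes on those lists) and the collagen genes Col1a1, Col1a2 and Col3a1, and genes higher in both included the class II genes H2-Aa and H2-Eb1 and the cornified-envelope gene Ivl. By limma's moderated test with Benjamini-Hochberg adjustment below 0.05 over all genes tested, 877 genes changed on average, which is 5.99% of the 14645. Of these, 395 rose (2.70%) and 482 fell (3.29%). The median change was 1.24 among the genes that rose and -1.65 among those that fell, against -0.11 over all genes. Falls were the larger changes: 146 genes fell and 65 rose at least 4-fold, and 19 fell and 0 rose at least 16-fold. The split between rises and falls depended on the scaling, with 45.0% of calls higher here, 55.7% after quantile normalization and 86.2% after centring each array on its median, which moved the median change of all genes to 0.25. Leaving out castrated luminal replicate 1, 2 or 3 lowered the number of calls to 508, 479 and 470.

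An average over 2 cell types can stand for like or unlike changes, so each cell type was also tested alone. Castration changed 858 genes in luminal cells (5.86%) and 384 in basal cells (2.62%). A total of 99 genes (0.676%) passed in both cell types in the same direction, 31 higher (0.212%) and 68 lower (0.464%), and 18 (0.123%) passed in both in opposite directions. Genes lower in both made up 15.7% of the lower calls in luminal cells and 30.9% of those in basal cells. Genes higher in both made up 7.31% and 18.9% of the higher calls. All 99 also passed the average test, and in none of them did castrated and intact arrays overlap in either cell type. Across all 14645 genes, which are not independent replicates, the luminal and basal changes correlated at Pearson's r of 0.293 and Spearman's rho of 0.260, and 59.97% of genes had the same sign.

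The remaining average calls did not pass in both cell types. Of the 877 genes, 344 passed in luminal cells as well but not in basal cells, 125 in basal but not luminal cells, and 309 (145 higher, 164 lower) in neither alone. The signs agreed in 875 of the 877. The exceptions were Dcn, encoding the matrix proteoglycan decorin, and Mt1, a metallothionein, both of which fell in luminal cells and had basal changes of 0.06 ± 0.25 and 0.01 ± 0.19 (log2, SE). The call of the average was lost for each of them without any one of 6 arrays. Castrated and intact arrays did not overlap in either cell type for 562 of the 877, 258 higher and 304 lower (3.84% of all genes tested). Without any calling, 6.15% of all genes showed no overlap in the same direction in both, 3.01% higher and 3.13% lower. The castration effect differed between the cell types, by the interaction term, for 168 genes overall (1.15%) and for 43 of the 877.

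**Figure D1:**
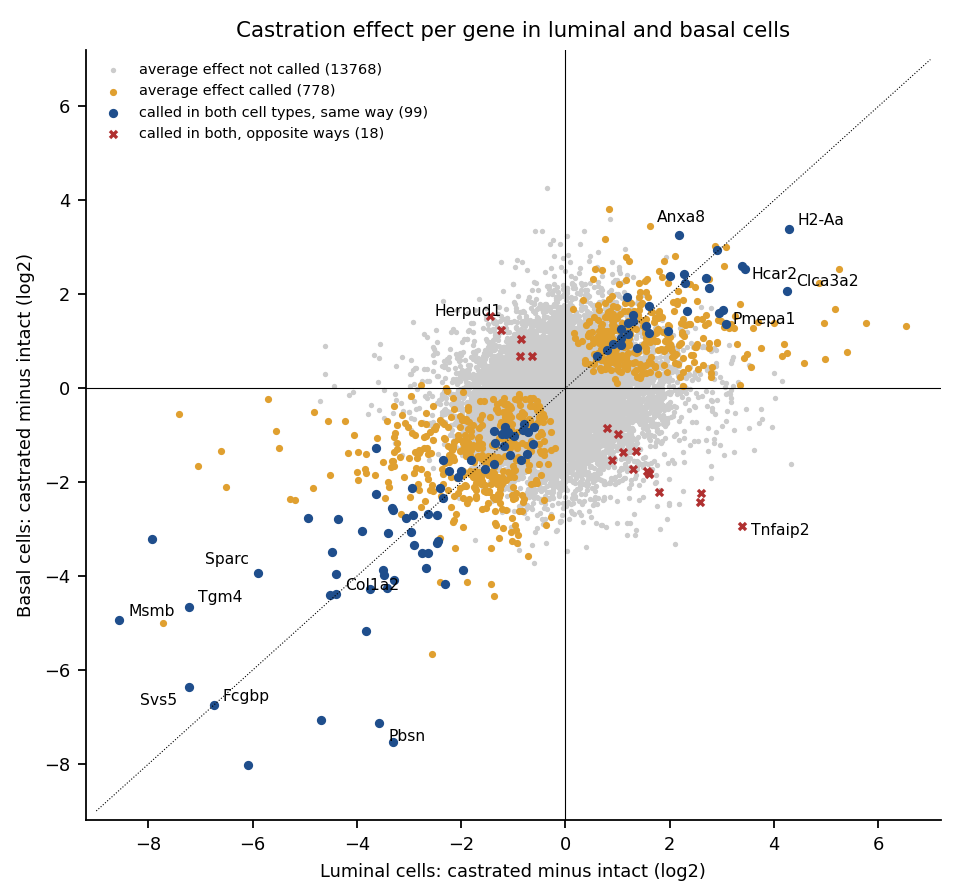
Castrated minus intact change on the log2(signal + 16) scale in luminal cells (horizontal) and basal cells (vertical), 1 point for each of 14645 genes, with the dotted line marking equal changes. The 99 genes called in both cell types in the same direction lie in the lower left and upper right, and the 18 called in opposite directions in the other corners.

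Among the 68 genes lower in both, the smaller of the luminal and basal changes ranged from 0.60 to 6.74 with a median of 2.51 (log2, as sizes). Among the 31 genes higher in both, it ranged from 0.60 to 3.38 with a median of 1.37. The luminal change was the larger in 34 of the 68 and in 17 of the 31. For 56 of the 99 the luminal and basal changes were within 1.5-fold of each other, and for 6 of the 99 the interaction passed. All 99 kept the average call when any single array was left out, and 28 of the 68 falls but 4 of the 31 rises kept both calls in every such case. The count of 99 was lower by more than 1.5 times without castrated luminal replicate 1 (44), 2 (47) or 3 (55), castrated basal replicate 2 (57) or intact basal replicate 2 (64).

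Secreted proteins of the prostate held many of the largest shared falls. Of 15 measured members of the prostatic secretory list, 10 fell, 0 rose, and the other 5 did not pass. The 10 made up 66.7% of the list, against 5.99% of all genes tested called in either direction. The list's median change was -2.25, and 5 members fell in both cell types. Fcgbp, an IgG Fc-binding mucin-like protein, came first among the 99 when ranked by the smaller of the luminal and basal changes. Its signals were 57709, 53329 and 80860.3 on the intact luminal arrays and 650.1, 523 and 549 on the castrated luminal arrays. In basal cells they were 5458, 1828 and 12678 on intact and 15.1, 127 and 7.45 on castrated arrays. No castrated array reached an intact array of either cell type. The change was -6.74 ± 0.62 in luminal and -6.74 ± 0.62 in basal cells (log2, SE), an average 107-fold fall (limma adjusted p = 3.04e-08).

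Msmb, encoding beta-microseminoprotein, a major protein of seminal plasma, read 40816, 41762 and 5532 on the intact luminal and 26.7, 51 and 45.4 on the castrated luminal arrays. Basal signals were 3702, 635 and 113 on intact and 2.94, 7.36 and 8.32 on castrated arrays. Replicate 3 was the lowest intact array in both cell types, yet it stayed above every castrated array of its cell type. The average fall was 108-fold, with changes of -8.56 ± 0.93 in luminal and -4.94 ± 0.93 in basal cells. Spink1, a trypsin inhibitor of seminal fluid, had the same low intact replicate 3: its signals were 75381, 74213 and 83.4 on intact luminal and 5721, 6661 and 1.15 on intact basal arrays. The castrated arrays read 19.1, 34.9 and 17.5 in luminal and 7.25, 4.45 and 26.5 in basal cells, so the basal groups overlapped, and Spink1 passed in luminal cells (adjusted p = 0.0396) and not in basal cells (adjusted p = 0.223).

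Tgm4, the prostate-specific transglutaminase that clots seminal fluid, read 40889.9, 36554 and 57548 in intact luminal and 304, 308 and 239 in castrated luminal cells. The basal readings were 3196, 1594 and 4745 on intact and 65.6, 200.2 and 72.4 on castrated arrays. The groups were far apart in both cell types, and the luminal change of -7.21 ± 0.43 exceeded the basal change of -4.65 ± 0.43 (interaction adjusted p = 0.0495). Pate14, of a family of small secreted seminal proteins, fell by 7.93 on the log2 scale in luminal and by 3.21 in basal cells, which also differed (interaction adjusted p = 0.0143). Azgp1, Apof and Ceacam10 passed on average and in luminal cells alone, and their castrated and intact arrays did not overlap in either cell type for Azgp1 and Apof.

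Pbsn, encoding probasin, is a classical androgen-dependent gene of the rodent prostate, and it went against that order. Its signals were 57928, 56237 and 70160.0 in intact luminal and 5953, 4689.9 and 4837 in castrated luminal cells. In basal cells they were 9468, 4705 and 12419 on intact and 134, 19.1 and 23.2 on castrated arrays. The castrated luminal cells thus kept a bright Pbsn signal while the castrated basal cells did not. The fall was -3.57 ± 0.44 in luminal and -7.12 ± 0.44 in basal cells, and the difference of 3.55 passed (95% interval 2.23 to 4.87, interaction adjusted p = 0.00906). Mean basal signal was 14.4% of mean luminal signal in intact and 1.14% in castrated animals.

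The stretch just upstream of the Pbsn start (RefSeq, GRCm38.p6, chrX:77853501-77853650, minus strand, ending at the base before the start) is shown because this promoter is a well-known androgen target. Capitals mark AGAACA, a half-site of the steroid receptor element, whose first base lies 95 bases before the start.
Pbsn: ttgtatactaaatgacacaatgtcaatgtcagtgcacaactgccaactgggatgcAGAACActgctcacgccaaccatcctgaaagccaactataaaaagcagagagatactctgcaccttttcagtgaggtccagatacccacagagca
AGAACA or its complement TGTTCT was present in 19.0% of all 32851 RefSeq windows (250 bases before to 50 after a start). Counted by gene, it was present for 15.6% of the 11725 tested genes with a window. It was present for 10 of 51 genes lower in both cell types with a window (19.6%), and for 3 of the 6 lowered prostatic secretory genes with one (Azgp1, Ceacam10 and Pbsn).

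Proteins made by the seminal vesicle, which prostate cells are not the main source of, fell as well. Of 7 measured members, 5 fell (Svs2, Svs4, Svs5, Svs6 and Pate4, the last also on the prostatic list), 0 rose, and the median change was -3.97. The called share was 71.4%, against 5.99% of all genes tested. Svs5 read 95842, 107760.0 and 157703 in intact luminal and 1094, 1012 and 414 in castrated luminal cells. Its signals in basal cells were 15926, 14058 and 9747 on intact and 357, 183 and 36.9 on castrated arrays. The ranges did not meet in either cell type, and Svs5 had the lowest adjusted p of the shared secretory genes named here (4.08e-09), with changes of -7.22 ± 0.52 and -6.36 ± 0.52. Svs4 read 34053, 67289.6 and 69699.8 in intact luminal, 2715, 3423 and 994 in castrated luminal, 1099, 10728 and 1834 in intact basal and 1.1, 2.16 and 14.3 in castrated basal cells, dim (under that array's 40th percentile) in all castrated basal samples. Svs2 fell by 3.32 in luminal cells and fell by 7.53 in basal cells, and like Pbsn it fell further in basal cells (interaction adjusted p = 0.0143). Svs6 fell in luminal cells by 7.41 (adjusted p = 8.8e-05) and read 2.5, 197 and 2.3 in intact basal cells, dim on all but replicate 2; its average call was lost without any one of 7 arrays.

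The summed signal of the 15 prostatic secretory genes was 337441 to 378270 on intact luminal and 34482 to 48079 on castrated luminal arrays. On basal arrays it was 24952 to 37883 when intact and 3933 to 5940 when castrated. Intact basal arrays thus carried a sum in or below the castrated luminal range. Fewer cells of a type in a gate and less RNA per cell cannot be told apart here, and how much of the basal signal came from luminal cells or their RNA was not tested.

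**Figure D2:**
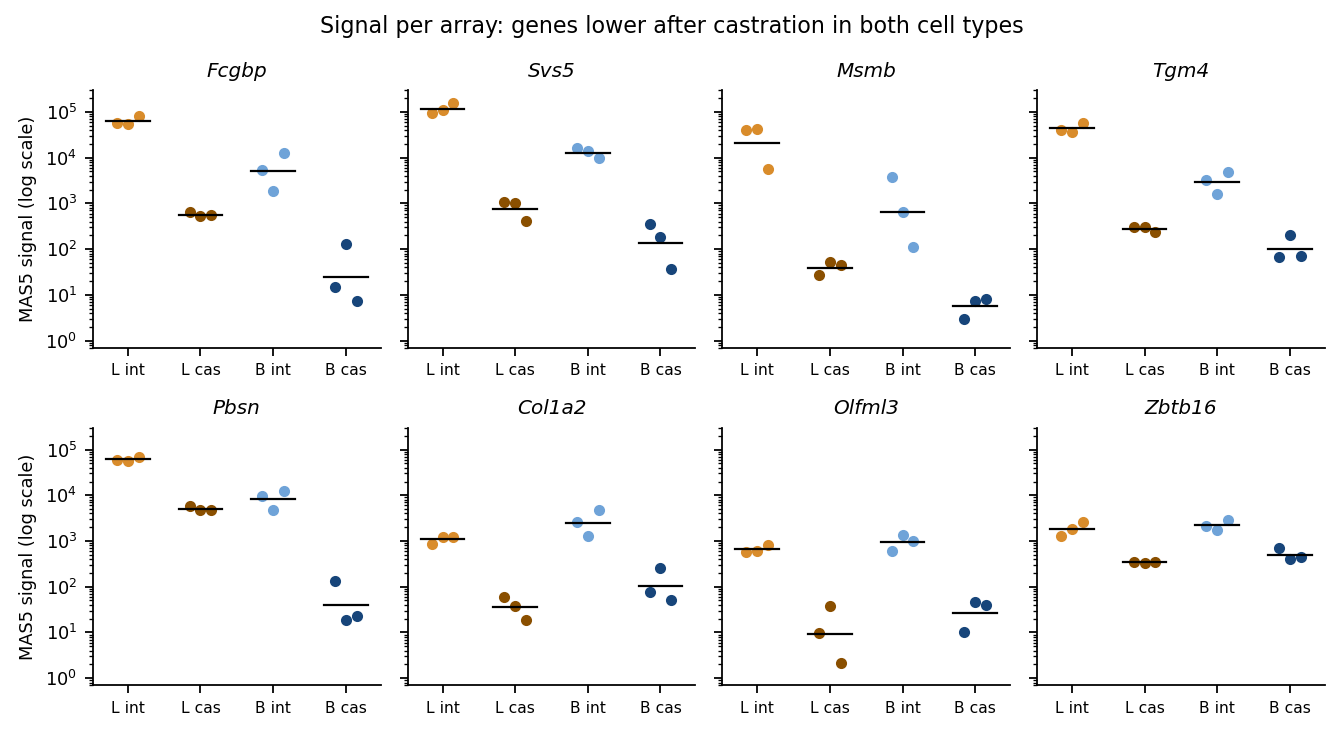
Signal on each array (log axis, MAS5 units) of 8 genes lower after castration in both cell types, with L for luminal, B for basal, int for intact and cas for castrated; points are the 3 arrays of a group and lines their geometric means. Castrated and intact points do not overlap within either cell type in any panel, and Pbsn read 4689.9 to 5953 on the castrated luminal arrays.

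A second set of shared falls were genes of the fibrous matrix. Col1a2, a chain of type I collagen, read 849, 1237 and 1240.0 in intact luminal and 59.8, 38.2 and 19 in castrated luminal cells. On the basal side it read 2559, 1294 and 4753 on intact and 78.5, 255 and 52.3 on castrated arrays. The castrated arrays were below the intact ones throughout, and the luminal and basal changes were nearly equal at -4.40 ± 0.60 and -4.39 ± 0.60, although the 95% interval of their difference ran from -1.79 to 1.76. Col1a1, the other chain of type I collagen, fell by 3.90 and 3.03, and Col3a1, of type III collagen, by 4.94 and 2.77 in luminal and basal cells. Sparc, a collagen-binding glycoprotein, read 1984, 945 and 4316 in intact luminal and 7.9, 27.2 and 22.1 in castrated luminal cells. In basal cells it was far brighter, at 16614, 12407 and 15355 on intact and 1538, 390.0 and 1396 on castrated arrays. It fell by 5.90 ± 0.54 in luminal and by 3.93 ± 0.54 in basal cells.

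Olfml3 and Dpt, which encode secreted matrix proteins, fell by 4.52 and 4.40 in luminal and by 4.41 and 3.96 in basal cells. Olfml3 read 585, 606 and 802 in intact luminal, 9.9, 37.5 and 2.14 in castrated luminal, 603, 1322 and 1008 in intact basal and 10.3, 45.3 and 38.9 in castrated basal cells, with no overlap. Col7a1, the anchoring-fibril collagen that epithelial cells themselves secrete, fell by 2.34 and 2.35. Tcf21, a transcription factor of mesenchymal cells, fell by 2.92 and 2.70. Igf1, the insulin-like growth factor that prostatic stroma supplies to the epithelium, read 303, 340.1 and 1851 in intact luminal and 57.4, 24.9 and 32.1 in castrated luminal cells. In basal cells it read 755, 1098 and 700.2 on intact and 116, 55.6 and 4.75 on castrated arrays, again without overlap (average adjusted p = 0.000441).

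Several of these genes are themselves markers of fibroblasts, a cell type that an EpCAM+ gate should leave out. Of 14 fibroblast markers, 11 fell on average, 0 rose, and 5 fell in both cell types (Col1a1, Col1a2, Col3a1, Serpinf1 and Sparc). Called on average were 78.6% of the markers, against 5.99% of all genes tested. Of the 10 markers other than Col1a1, Col1a2, Col3a1 and Sparc, 7 fell, 0 rose and 1 fell in both, with a median change of -1.65. The summed signal of these 10 was 6815 to 10460 on intact luminal and 1064 to 1421 on castrated luminal arrays. On basal arrays it was 28616 to 36336 when intact and 25633 to 30840 when castrated, so the basal ranges overlapped. Without Dcn the remaining 9 summed to 7887 to 13519 on intact basal and 4334 to 6668 on castrated basal arrays. For all 14 markers the sum was 9794 to 18742 on intact luminal and 1169 to 1499 on castrated luminal arrays. In basal cells the sum of the 14 was 43778 to 57368 on intact and 26869 to 32628 on castrated arrays. Without Dcn, which read 22817, 20728 and 19696 on intact basal and 21299, 19296 and 25683 on castrated basal arrays, the sum of the other 13 was 23050 to 34552 on intact basal and 6142 to 7574 on castrated basal arrays. None of the 14 was dim on all arrays of either intact group, while 5 lay below the 40th percentile on all castrated luminal and 2 on all castrated basal arrays. The part of sorted fibroblasts or their RNA in the matrix result was not tested. Among the other cell types, 1 of 8 smooth muscle markers fell (Myl9, in both). Of 10 endothelial markers 1 fell (Pecam1, which did not pass after quantile normalization or median centring). Of 4 neuroendocrine markers 0 passed limma's test (1 at an unadjusted p below 0.05). Average changes were below 0 for 8 of 8 smooth muscle, 9 of 10 endothelial and 3 of 4 neuroendocrine markers. Their medians were -0.99, -0.67 and -0.63, against -0.11 over all genes. The beta-globin gene Hbb-b2 of red blood cells read 158, 269 and 237 in intact luminal and 1.02, 1.66 and 0.893 in castrated luminal cells. Basal signals were 224, 726 and 301 on intact and 5.55, 4.63 and 1.48 on castrated arrays, so both castrated groups were at the dim end of the arrays. Alas2, of haem synthesis and the other of 2 measured red cell markers, went the other way in luminal cells, from 20.2, 13.5 and 8.15 to 460.2, 309 and 261, a rise of 3.57 (adjusted p = 0.00118), with a basal change of 0.46 that did not pass. In all, 7 of the 68 shared falls and 0 of the 31 shared rises were on a list of another cell type, and 8 of the 68 were on a secretory list.

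Class II antigen presentation had the highest share of rises among lists with at least 5 measured members. Of 10 measured members, 5 rose on average (Cd74, Ctss, H2-Aa, H2-Ab1 and H2-Eb1), 0 were called lower, and the median change was 1.76. The other 5 (Ciita, H2-DMa, H2-DMb2, H2-Eb2 and H2-Oa) were not called. An average change below 0 was seen for 4 of the 10. The called share was 50%, against 5.99% of all genes tested. H2-Aa and H2-Eb1, which encode an alpha and a beta chain that bind peptide for CD4+ T cells, rose in both cell types. H2-Aa read 209, 18.1 and 3.95 in intact luminal and 1178, 1593 and 567 in castrated luminal cells. The basal readings were 113, 69.9 and 20.3 on intact and 358, 1383 and 859 on castrated arrays. The intact arrays scattered widely, but every castrated array was above every intact array of its cell type. H2-Aa rose by 4.28 ± 0.81 in luminal and 3.38 ± 0.81 in basal cells (adjusted p = 0.00384 and 0.0358).

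H2-Eb1 read 24.3, 36 and 29.3 in intact luminal and 366, 661 and 142 in castrated luminal cells. Its signals in basal cells were 210.3, 23.6 and 15 on intact and 401, 562 and 514 on castrated arrays. The basal groups were separated even though intact replicate 1 was well above the other intact arrays, and the luminal and basal rises were 2.92 and 2.95. Cd74, the invariant chain that escorts class II molecules, read 534, 294 and 186 in intact luminal, 2627, 4191 and 1203 in castrated luminal, 397, 17.8 and 743 in intact basal and 894, 2086 and 3014 in castrated basal cells. It rose on average by 2.95 ± 0.59 (adjusted p = 0.00638) and missed the threshold in luminal (0.0564) and basal cells (0.0667) taken alone. Ctss, the protease that trims the invariant chain, rose by 3.45 in basal cells, with a luminal change of 1.62 (adjusted p = 0.0866). Both calls of H2-Aa held in 5 and those of H2-Eb1 in 1 of 12 single-array omissions, while their average calls held in all 12. The average call of H2-Ab1 was lost without any one of 4 arrays.

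The promoters of H2-Aa (chr17:34287824-34287973, minus strand) and H2-Eb1 (chr17:34305717-34305866, plus strand), from RefSeq on GRCm38.p6 and ending at the base before the start, are shown because these genes moved together. Capitals mark CTGATTGG, the inverted CCAAT core of the class II Y box, whose first base is 51 bases before the H2-Aa start and 62 before the H2-Eb1 start.
H2-Aa: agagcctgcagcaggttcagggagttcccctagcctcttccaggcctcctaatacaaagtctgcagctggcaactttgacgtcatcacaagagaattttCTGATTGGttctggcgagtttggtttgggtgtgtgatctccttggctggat
H2-Eb1: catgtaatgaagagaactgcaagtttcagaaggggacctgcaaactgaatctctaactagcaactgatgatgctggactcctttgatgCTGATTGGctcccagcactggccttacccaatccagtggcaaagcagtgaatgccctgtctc
CTGATTGG or its complement CCAATCAG was found in 4.10% of all windows, and for 6.00% of tested genes with a window. It was found in 2 of the 3 class II genes that rose and had a window, and in 2 of the 4 that did not pass.

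Markers of leukocytes, some of which carry class II molecules, were measured beside them, since the antibodies of the lineage gate are not given in the sources used here. Of 14 leukocyte markers, 0 rose and 1 fell (Cd4), while after centring arrays on their median 3 rose and 1 fell. Before centring, 7.14% of the markers were called, near the 5.99% of all genes tested. In a cell type alone, the myeloid genes Cd14, higher in luminal cells by 1.94 (adjusted p = 0.0396), and Lyz2, higher in basal cells by 2.40 (adjusted p = 0.0398), passed; they were picked out after their values were seen. The summed signal of all 14 leukocyte markers was 919 to 1868 on intact luminal and 968 to 1057 on castrated luminal arrays. It was 1501 to 3021 on intact basal and 2170 to 3201 on castrated basal arrays. The class II sum over the same groups was 643 to 1672, 2843 to 8974, 708 to 1632 and 3298 to 6526. Ptprc, the pan-leukocyte CD45, read 36.3, 57.1 and 32.9 in intact luminal and 9.22, 12 and 19.6 in castrated luminal cells. On the basal side it read 21.7, 37.7 and 52.3 on intact and 0.594, 2.54 and 89.1 on castrated arrays. The castrated luminal arrays were thus all below the intact luminal ones, and the basal groups overlapped. Ptprc was dim on all castrated luminal arrays and on intact luminal replicates 1 and 3, so this order rests on low signals. Tyrobp, a myeloid adaptor, read 144, 69.8 and 5.16 in intact basal and 659.6, 617 and 169.9 in castrated basal cells and did not pass there (adjusted p = 0.0873). Whether myeloid RNA had a part in the class II rise was not tested. Of 15 class I presentation genes 1 rose (Psmb8) and 1 fell (B2m), against 3 and 0 after median centring.

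Some genes of cornified and stressed epithelium also rose. Of 16 members of the squamous and stress keratin list, 5 rose (Dsc2, Ivl, Krt6a, Lor and Sfn) and 0 were called lower. The other 11 were not called, and 6 of the 16 had an average change below 0. Only Ivl passed in both cell types. The called share was 31.25%, against 5.99% of all genes tested. Ivl, encoding involucrin of the cornified envelope, read 83.9, 134 and 44.8 in intact luminal and 839, 938 and 284 in castrated luminal cells. In basal cells it read 1643, 1562 and 433 on intact and 5498, 5669.7 and 4906 on castrated arrays. It was higher in every castrated array, by 2.69 ± 0.55 in luminal and 2.35 ± 0.55 in basal cells. Lor, encoding loricrin, rose in basal cells by 2.49 (adjusted p = 0.0428) with a luminal change of 1.80 (adjusted p = 0.108). Krt6a, a keratin of stressed and wounded epithelium, read 436, 531 and 3.86 in intact luminal and 7211, 5149.7 and 7065 in castrated luminal cells, a rise of 5.24 ± 0.88, and its basal change of 2.54 ± 0.88 did not pass (adjusted p = 0.135). The difference between those changes did not pass either (interaction adjusted p = 0.378).

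Anxa8, a calcium-dependent membrane-binding protein of stratified epithelia, read 20.5, 42 and 136 in intact luminal and 230.3, 351 and 309 in castrated luminal cells. Basal signals were 491, 388 and 229.9 on intact and 3318, 3307 and 4016 on castrated arrays. It rose by 2.17 and 3.26, with no overlap. Aqp3, a water and glycerol channel of basal epithelial cells, read 34.4, 16.4 and 1.79 in intact luminal and 629, 318 and 157 in castrated luminal cells. The basal readings were 5455, 9325 and 1962 on intact and 23736, 22961 and 36909 on castrated arrays. All castrated arrays were higher, and the intact luminal arrays were all below their 40th percentile, so the luminal size of 3.44 depends on the constant added before the log. Lypd3, a membrane-anchored protein of the Ly6 family, rose by 2.76 and 2.14 and was 1 of 3 of 14 proximal luminal genes that rose, beside Aldh1a3 and Ly6d; after quantile normalization 6 rose and after median centring 9.

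Receptors and signalling genes were also among the shared rises. Hcar2, a receptor for short hydroxy acids and niacin, read 8.6, 67.5 and 21.9 in intact luminal and 410.0, 638 and 305 in castrated luminal cells. Its signals in basal cells were 379, 232 and 121 on intact and 1292, 2227 and 1008 on castrated arrays, and the groups were apart in both. Socs5, of the suppressors of cytokine signalling, read 808, 377 and 184 in intact luminal and 1702, 1827 and 2326 in castrated luminal cells. On the basal side it read 307, 279.8 and 327 on intact and 1222, 2279 and 1844 on castrated arrays. Socs5 rose by 2.28 ± 0.46 and 2.44 ± 0.46, again without overlap, and kept both calls in all 12 single-array omissions.

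The cytokine receptor chains Il6ra and Il13ra1 rose by 1.60 and 1.19 in luminal and by 1.19 and 1.95 in basal cells. The kinase gene Pim1 rose by 1.96 and 1.21, and Trib3, a pseudokinase induced by stress, by 2.29 and 2.24. Hif1a, the oxygen-regulated transcription factor subunit, rose by 1.07 ± 0.25 and 1.08 ± 0.25, and the desmosomal plakophilin Pkp4 by 0.80 and 0.82, which placed them with H2-Eb1 as the shared rises with the most equal changes. Thbs1, the matrix glycoprotein thrombospondin 1, rose by 3.08 in luminal and 1.37 in basal cells, a difference that passed (interaction adjusted p = 0.0039). Clca3a2 rose by 4.25 and 2.08, and the zinc importer gene Slc39a4 by 2.01 and 2.39.

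**Figure D3:**
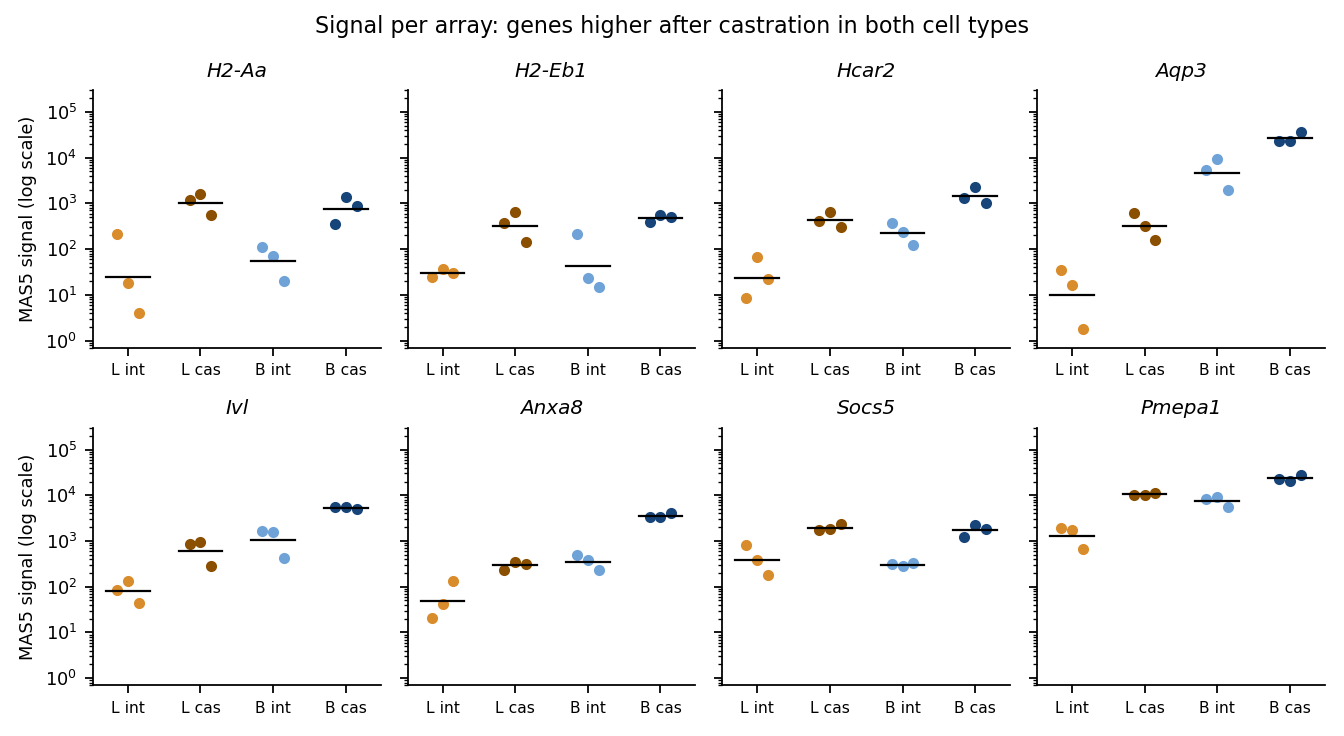
Signal on each array (log axis, MAS5 units) of 8 genes higher after castration in both cell types, drawn as in the plot of falling genes with the same axis. Castrated points lie above intact points within each cell type in every panel, and the intact points scatter more widely than the castrated ones for H2-Aa in luminal cells.

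**Figure D4:**
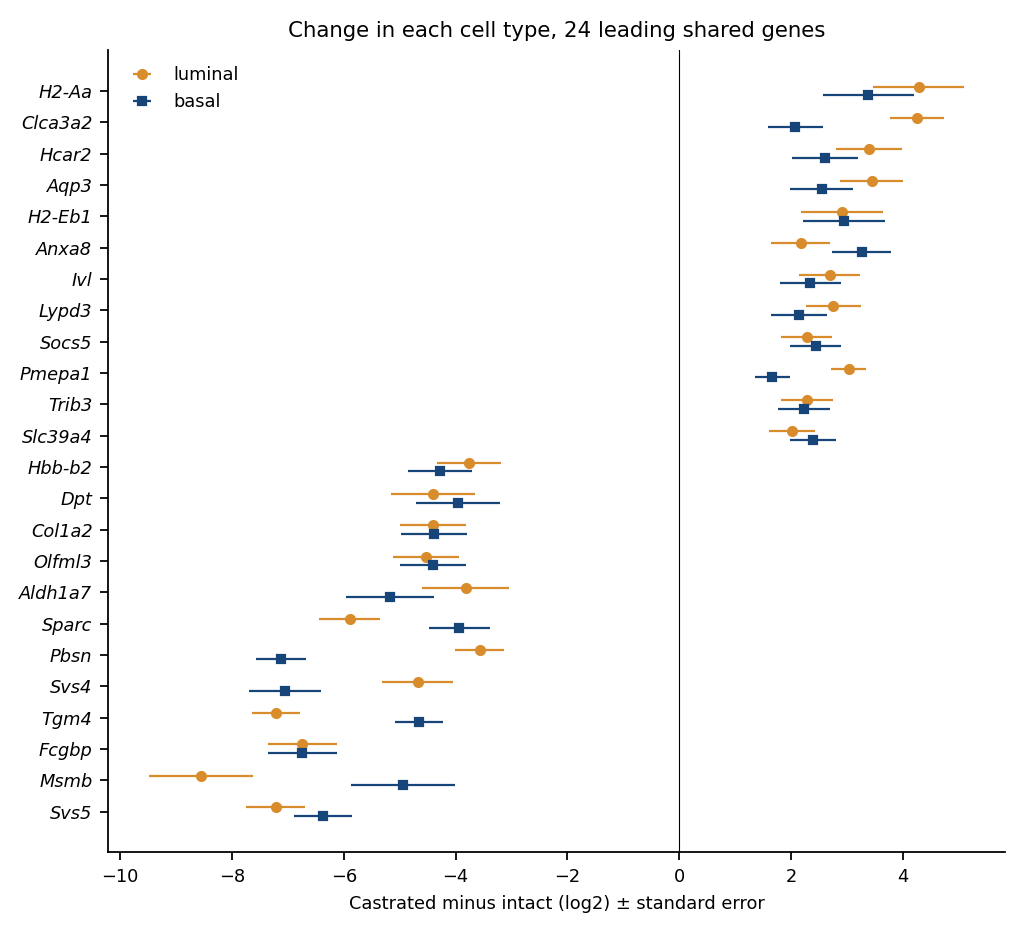
Castrated minus intact change in luminal (circles) and basal cells (squares), with limma standard errors, for the 12 shared rises and 12 shared falls with the largest smaller change of the 2 cell types (clone names left out). Rises lie between 1.66 and 4.28, and falls reach -8.56 for Msmb in luminal cells, with Pbsn and Tgm4 the pairs whose difference passed the interaction test.

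Regulatory genes known to respond to androgen moved in both directions. Of 22 measured, 4 rose and 6 fell, against 8 and 4 after median centring. Before centring, 45.5% of the list was called, against 5.99% of all genes tested. Zbtb16, a zinc finger transcription factor induced by androgen, read 1295, 1866 and 2663 in intact luminal and 345, 327 and 345 in castrated luminal cells. In basal cells it read 2126, 1772 and 2877 on intact and 706, 395 and 440.2 on castrated arrays. It fell by 2.40 ± 0.38 and 2.12 ± 0.38 with no overlap. Hpgd, which inactivates prostaglandins, fell in both cell types by 2.35 and 1.52. Fkbp5, a chaperone of steroid receptors, fell in luminal cells by 2.84 (adjusted p = 0.000523), and its basal change of -1.47 had an adjusted p of 0.0674. Pmepa1, an inhibitor of TGF-beta signalling that androgen induces in human prostate cells, rose instead, from 1888, 1697 and 661 to 10212, 10336 and 11366 in luminal and from 8215, 8968 and 5464 to 22718, 20009.7 and 28154 in basal cells. None of its castrated arrays overlapped an intact one, and the rises were 3.03 ± 0.31 and 1.66 ± 0.31. Of 15 steroid receptor and steroid enzyme genes, 0 passed limma's test in either direction, and 2 had an unadjusted p below 0.05.

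Genes of the ER folding machinery fell without a called rise. Of 32 measured members, 10 fell (Calr, Creld2, Dnajb9, Dnajc3, Hsp90b1, Hspa5, Manf, Pdia3, Pdia4 and Sec61b), 0 rose, and 30 had an average change below 0, with a median of -0.57. The 10 made up 31.25% of the list, against 5.99% of all genes tested called in either direction. After centring arrays on their median, 3 of the 32 fell. Hsp90b1, the ER chaperone GRP94, read 22722, 25685 and 25719 in intact luminal and 11823, 10822 and 10563 in castrated luminal cells. Basal signals were 12291, 10918 and 13307 on intact and 6329, 5802 and 7164 on castrated arrays. The ranges did not overlap, and the falls were 1.16 ± 0.15 and 0.92 ± 0.15 (adjusted p = 0.000213 and 0.0046).

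Dnajc3, a co-chaperone that also restrains the translation kinase PERK, fell by 1.22 and 0.96 in luminal and basal cells. Hspa5, the ER chaperone BiP, fell on average by 0.87 (adjusted p = 0.00579), and its basal change of -0.44 did not pass alone (adjusted p = 0.231). Derl3, of the pathway that removes misfolded proteins, fell by 2.95 and 2.12, and Agr2, a disulfide isomerase needed for mucin secretion, had changes of -3.64 and -2.25. The unfolded protein response list as a whole was mixed, with 2 of 22 higher (Chac1 and Trib3) and 2 lower (Atf3 and Derl3), against 3 and 1 after median centring. Of 35 ER to Golgi transport genes 2 fell and 0 rose, against 1 and 1 after median centring. The share called before centring was 5.71%, near the 5.99% of all genes tested.

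The ER stress response element, CCAAT followed after 9 bases by CCACG, is where unfolded-protein sensors act on chaperone genes. It was found on either strand in 0.119% of all windows, and for 0.154% of tested genes with a window. Of 9 ER folding genes that fell and had a window, 5 held it (Calr, Creld2, Dnajc3, Hsp90b1 and Hspa5). Of 16 that did not pass, 3 held it (Canx, Ero1b and Pdia6). Stretches of 3 of these promoters are shown with the matches in capitals: Hsp90b1 (chr10:86705515-86705664, minus strand), with matches whose first bases lie 212 and 107 bases before the start, the second on the opposite strand; Dnajc3 (chr14:118937782-118937931, plus strand), with a match at 105; and Hspa5 (chr2:34771940-34772089, plus strand), with a match at 65.
Hsp90b1: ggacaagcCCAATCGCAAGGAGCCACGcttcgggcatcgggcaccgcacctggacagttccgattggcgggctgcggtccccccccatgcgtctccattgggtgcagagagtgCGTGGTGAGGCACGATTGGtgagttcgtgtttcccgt
Dnajc3: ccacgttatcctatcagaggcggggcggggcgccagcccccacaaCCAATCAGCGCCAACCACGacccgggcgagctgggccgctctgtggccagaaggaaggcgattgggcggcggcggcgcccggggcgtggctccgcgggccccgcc
Hspa5: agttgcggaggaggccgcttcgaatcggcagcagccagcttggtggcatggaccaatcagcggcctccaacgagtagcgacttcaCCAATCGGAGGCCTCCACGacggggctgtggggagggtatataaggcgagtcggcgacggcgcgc
The Dnajc3 match also holds CCAATCAG, the complement of the class II Y box, which both motifs share through their CCAAT core. CTGATTGG or CCAATCAG was found in 4 of the 9 lowered ER folding genes and in 5 of the 16 that did not pass, so it was not limited to class II promoters.

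Of 25 genes of glutathione and oxidant defence, 8 fell and 0 rose, against 3 and 3 after centring arrays on their median. Those that fell were Gclc, Gclm, Gpx1, Gpx3, Gsta3, Gstm5, Gstp1 and Sod3. They made up 32% of the list, against 5.99% of all genes tested called in either direction. Gpx3, a secreted glutathione peroxidase, read 7770.4, 8175 and 12278 in intact luminal and 3903, 1105 and 173 in castrated luminal cells. The basal readings were 2428, 2691 and 2313 on intact and 67.5, 260.2 and 124 on castrated arrays. The castrated luminal arrays spread over a wide range but stayed below the intact ones, and the falls were 3.29 ± 0.73 and 4.07 ± 0.73. Gsta3, a glutathione transferase, fell by 2.07 and 1.88. Gclc and Gclm, the subunits of the rate-limiting enzyme of glutathione synthesis, fell on average by 1.04 and 0.96. The aldehyde dehydrogenase genes Aldh1a1 and Aldh1a7, the first an enzyme of retinoic acid synthesis, fell in both, with changes of -2.23 and -3.82 in luminal and -1.75 and -5.17 in basal cells.

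The cell cycle list and the ErbB and IGF list each held 1 gene lower in both cell types (Rrm2 and Igf1). On average, 12.5% of cell cycle and 20.8% of ErbB and IGF genes were called, against 5.99% of all genes tested. Of 32 cell cycle genes, 1 rose (Pcna) and 3 fell (Ccna2, Ccnd1 and Rrm2), against 3 and 1 after median centring. Rrm2, a subunit of ribonucleotide reductase, read 1119, 1749 and 1427 in intact luminal and 491, 371 and 216 in castrated luminal cells. Its signals in basal cells were 5716, 5582 and 5176 on intact and 1461, 2310.1 and 1224 on castrated arrays, lower in every castrated array. The proliferation marker Mki67 changed by -1.42 ± 0.56 on average and did not pass (adjusted p = 0.142). Of 24 ErbB and IGF genes, 5 fell (Egf, Igf1, Igfbp5, Igfbp7 and Irs2) and 0 rose, against 2 and 4 after median centring. Of 27 respiratory chain genes 3 fell and 0 rose, against 1 and 2 after median centring, with Ndufa1 lower in both cell types, with changes of -1.05 and -1.41.

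Most identity genes were not called, but 9.52% of basal and 23.1% of luminal identity genes were, against 5.99% of all genes tested. Of 21 basal identity genes 2 rose (Aqp3 and Krt17), and of 13 luminal identity genes 2 rose (Cdh1 and Krt19) and 1 fell (Hoxb13), while after median centring 6 and 5 rose. Krt14 and Krt8 changed by -0.19 ± 0.35 and 0.23 ± 0.13 and did not pass, although Krt8 passed as higher under quantile normalization and median centring. Hoxb13, the homeobox factor of posterior and prostatic epithelium, fell by 2.91 in basal cells (adjusted p = 0.00395), with a luminal change of -0.96 (adjusted p = 0.287), and its arrays did not overlap in either. Runx1 and Sox9, transcription factors of progenitor-like prostate cells, rose on average by 1.34 and 0.75 and passed in luminal cells alone.

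**Figure D5:**
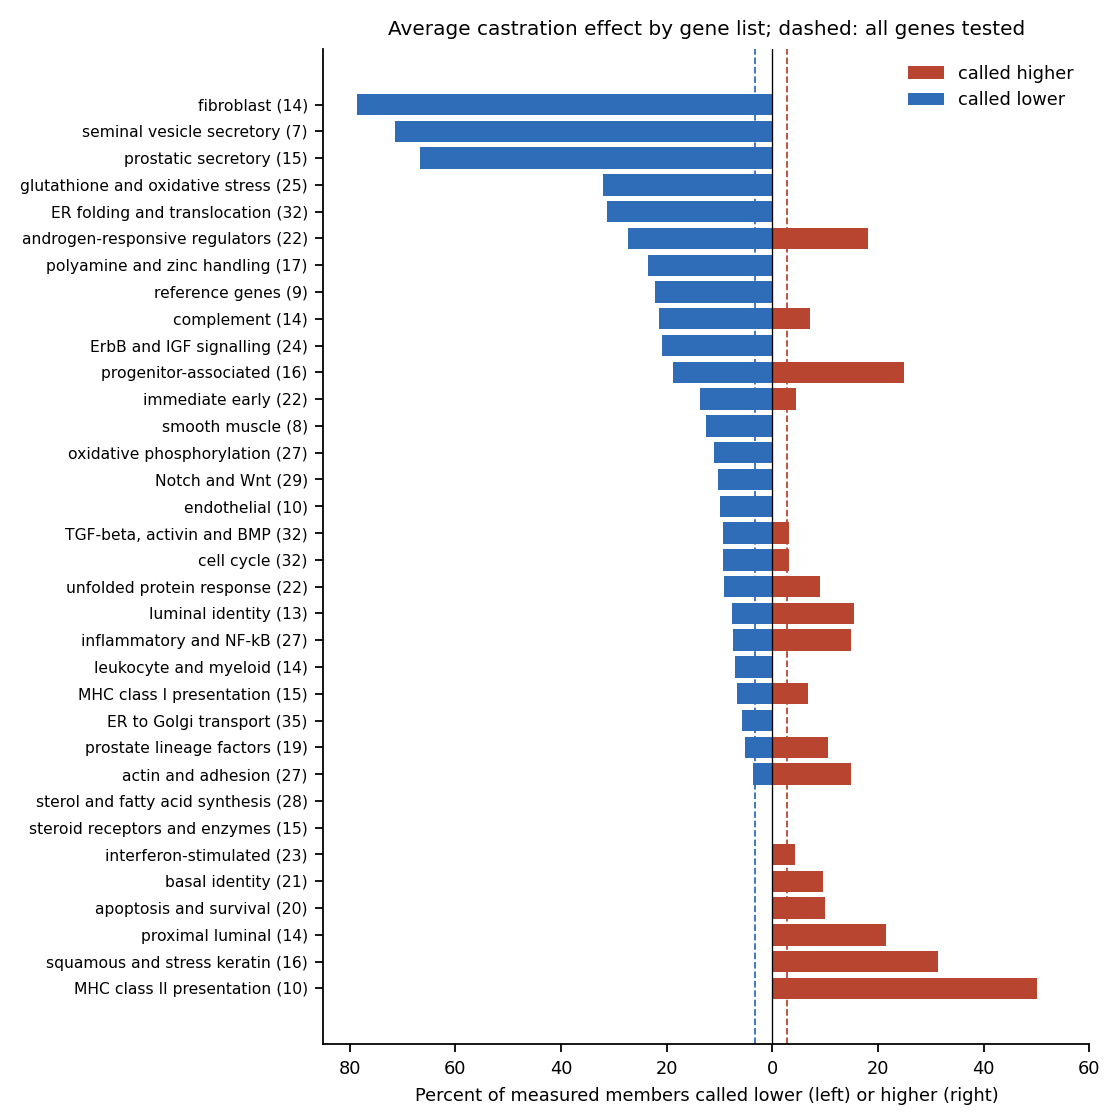
Percent of measured members called lower (left) or higher (right) in the average castration effect for each gene list with at least 5 measured members (number in brackets), with dashed lines at the shares of all genes tested, 3.29% lower and 2.70% higher. Fibroblast, seminal vesicle and prostatic secretory lists extend furthest to the left and class II presentation furthest to the right.

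The average concealed genes that moved in opposite directions. Of the 18, 13 rose in luminal and fell in basal cells and 5 did the reverse. Tnfaip2, a gene induced by tumour necrosis factor, read 691, 278 and 290.1 in intact luminal and 3333, 5331 and 4020.2 in castrated luminal cells. On the basal side it read 357, 466 and 266 on intact and 123, 8.07 and 17.9 on castrated arrays. It rose by 3.38 and fell by 2.93, leaving an average of 0.22 ± 0.85. Herpud1, of ER-associated degradation, fell by 1.24 in luminal and rose by 1.25 in basal cells. Of 28 sterol and fatty acid synthesis genes, 0 passed limma's average test (7 at an unadjusted p below 0.05), and 3 passed in both cell types with opposite signs: Hmgcs1, Sqle and Cyp51 rose by 0.90, 1.57 and 1.30 in luminal and fell by 1.53, 1.75 and 1.71 in basal cells.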

How the data were processed

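RNA of sorted cells was extracted with the RNeasy Micro kit and amplified with the NuGEN Pico kit before hybridization to Affymetrix mouse arrays, per the labels' protocols. The deposited values are linear MAS5 signal intensities of 45101 probe sets, per the submitters' processing notes; the MAS5 settings are not given in the sources used here. Amplification of small inputs and MAS5's subtraction of mismatch probes can make low signals noisy. Genes came from the platform annotation: 34945 probe sets carry 1 symbol, 932 several and 9160 none. Probe sets with 1 symbol and a signal above the array's 40th percentile on at least 3 arrays were kept, 1 per gene with the highest mean, and log2(signal + 16) was fitted in limma 3.58.1 (R 4.3.3) with an intensity trend. The average effect used cell type as a covariate (9 residual degrees of freedom), and the effects per cell type and their interaction used 4 group means (8). P-values were adjusted by Benjamini-Hochberg over all 14645 genes. The scripts were tested on simulated data. With 3 arrays a group, p-values measure the spread between these arrays. Folds are on the log2(signal + 16) scale and understate changes of dim genes; "dim" means below the 40th percentile, and 6 of the 24 leading shared genes had a group dim on all its arrays (Aqp3, H2-Eb1, Hbb-b2, Msmb, Sparc and Svs4).

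Members and gene lists were chosen with earlier results of these data known. Genes were named by rule: the 12 rises and 12 falls called in both cell types with no overlap and the largest smaller change, the 3 most equal of each, up to 3 called members per list, up to 6 opposite genes, the 3 rises and 3 falls called on average alone, and fixed markers (Fkbp5, Krt5, Krt14, Trp63, Krt8, Krt18, Mki67, Psca, Clu and Pbsn), clone names left out. Others were named after their values were seen: Agr2, Apof, Azgp1, Calr, Camkk2, Cd55, Cd68, Ceacam10, Chac1, Col1a1, Col3a1, Cyp51, Dcn, Eaf2, Fgl1, Gclc, Gclm, H2-Ab1, Herc3, Hspa5, Il13ra1, Il6ra, Lgals1, Mt1, Ndrg1, Pate14, Pate4, Penk, Pim1, Ptprc, Spink1, Sqle, Steap4, Svs6, Tcf21, Thbs1 and Tyrobp. The study's design pairs castrated with intact animals by set. Residuals of arrays with equal replicate numbers correlated at -0.0072 to 0.026 over all genes, and the replicate number entered only as an alternative. Such a correlation cannot show whether arrays were paired. Among intact arrays, Msmb and Spink1 were lowest on replicate 3 in both cell types. The main fits treat the 12 arrays as independent, which fails if luminal and basal arrays came from the same animals. A random block of set and treatment gave 1132 average calls and 99 genes in both cell types. Promoters came from RefSeq windows on GRCm38.p6, read on both strands; 51 of 68 shared falls and 24 of 31 shared rises had one. Alternatives were other scalings, constants, filters, probe set summaries, variance models, blocks and omitted arrays.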

Additional observations from a re-analysis of the deposited data

Results flagged for a closer look

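The castration effect differed between luminal and basal cells, by limma's interaction test adjusted over all genes, for the genes below, and each value is the luminal minus the basal change on the log2(signal + 16) scale. Among secreted proteins the difference was 3.55 for Pbsn and 4.22 for Svs2, which fell further in basal cells, and -2.56 for Tgm4 and -4.72 for Pate14, which fell further in luminal cells. It was -6.87 for Svs6, which fell in luminal cells and had a basal change of -0.54 that did not pass. Among genes with opposite calls it was 6.32 for Tnfaip2, 3.33 for Sqle, 3.01 for Cyp51, 2.67 for Plscr1, 2.43 for Hmgcs1, -2.48 for Herpud1, -1.90 for Plagl1 and -1.56 for Gstm1. The complement genes C1s1 and C1ra differed by -5.40 and -4.23, and both fell in luminal cells, while their basal changes of -1.65 and -1.28 did not pass. Dcn differed by -2.82, and the metallothioneins Mt1 and Mt2 by -2.31 and -2.22, with basal changes near 0. Thbs1 differed by 1.71, having risen further in luminal cells, and the neutrophil chemokine gene Cxcl5 by 4.37, having risen in luminal cells with a basal change of 1.39 that did not pass. Steap4 differed by 2.21, having risen in luminal cells. Clu differed by -2.10 and the actin-binding profilin gene Pfn2 by -2.98, both having risen in basal cells, and B2m by -0.79, having fallen in luminal cells. The adjusted p of these differences ranged from 0.000584 for Mt1 and Mt2 to 0.0495 for Tgm4.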

How the results depend on the processing

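No called average change of a named gene changed sign under any alternative run, but the balance of average calls turned over with the scaling: 395 higher and 482 lower became 453 and 361 after quantile normalization. The median change of 25 glutathione genes turned from -0.19 to 0.17 after median centring, and that of 27 respiratory chain genes from -0.21 to 0.15. Of the values of named genes recomputed, 3635 kept their side of the threshold, 503 no longer passed and 9 newly passed. Without the intensity trend, 528 genes were called on average (188 higher), 41 in both cell types (5 higher, 36 lower), 6 with an interaction among called genes and 81 list members. Median centring gave 1852 (1596 higher, 256 lower), 177 in both (137 higher, 40 lower) and 1154 without overlap, and it ended the average calls of Dcn, Mt1, Mt2, B2m, Calr, Hspa5, Gclc, Gclm, Ccnd1, Irs2 and Pecam1, among others, while Clu, Krt8 and Tyrobp newly passed. Array weights gave 1598 (731 higher, 867 lower) and 102 interactions. Fitting each cell type by itself gave 55 in both (14 higher, 41 lower). Adding 1 in place of 16 gave 25 interactions and averaging the 4-group contrasts gave 75. With the replicate block, 756 genes were called on average and 95 in both, 85 of the 99 among them; of the named genes only Alas2, Dcn, Ergic1, Gusb, Herc3, Lef1, Nkd1 and Steap4 lost a call. Of the 99 genes, 39 were called in both without the trend, 71 after centring, 73 after quantile normalization and 48 with separate fits.

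Leaving out single arrays, a pair of arrays or whole replicate numbers gave 127 to 889 average calls (35 to 393 higher, 92 to 496 lower), 11 to 111 in both (0 to 34 higher, 10 to 77 lower), 127 to 689 without overlap, 0 to 39 interactions and 47 to 138 list members; whole numbers gave the low ends, with 8 arrays left. Without intact luminal replicate 3 and castrated basal replicate 3, a setting chosen after seeing the data, 764 were called on average and 111 in both. Of 130 named genes with an average call, 31 lost it without some single array: Alas2, Bid, Camkk2, Casp4, Cd4, Cox6a1, Dcn, Ergic1, Fstl1, Gusb, H2-Ab1, Herc3, Ifit1bl1, Kdelr3, Krt17, Krt19, Lef1, Ly6d, Mt1, Mt2, Nkd1, Odc1, Pcna, Pecam1, Psmb8, Sfrp2, Slc30a2, Smad3, Steap4, Svs6 and Tgfb3. The cause of these shifts was not tested. With 3 arrays a group the median SE of the average effect was 0.43 and that of a luminal effect 0.59.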

Other observations

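Of the genes called on average but in neither cell type alone, Cd74, Sf3b3 and Spin1 had the lowest adjusted p among rises, with average changes of 2.95, 0.90 and 0.98. Frat2, Slc6a2 and Snhg6 had the lowest among falls, with average changes of -1.17, -2.14 and -1.05. Slc6a2, the noradrenaline transporter, read 2681, 3218 and 2497 in intact luminal and 575, 719 and 673 in castrated luminal cells. In basal cells it read 746, 1293 and 790.0 on intact and 47, 139 and 793 on castrated arrays, where castrated replicate 3 overlapped the intact range. Penk, encoding the precursor of enkephalin peptides, read 559, 259 and 1488 in intact luminal and 2.12, 38.7 and 5.58 in castrated luminal cells. In basal cells it read 1024, 774 and 2669 on intact and 167, 323 and 9.19 on castrated arrays, lower in every castrated array of both cell types. Fgl1, a secreted fibrinogen-like protein, fell by 4.37 in luminal and by 2.78 in basal cells.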
